A study of Mus musculus with 16 samples.

Results

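The TREM receptors, the adaptors through which they signal and the kinase that those adaptors recruit were followed in RAW 264.7 cells, a mouse macrophage-like cell line. The 6 genes, Trem1, Trem2, Trem3, Tyrobp, Hcst and Syk, were taken by symbol from the 52636 gene entries of each library. Cells received 25 nM of a control siRNA or of one directed at Cebpb, which encodes the transcription factor C/EBPβ. After 24 h they were stimulated with isoproterenol, which activates β-adrenergic receptors, or left unstimulated. The 4 groups, control siRNA, control siRNA with isoproterenol, Cebpb siRNA and Cebpb siRNA with isoproterenol, held 4 libraries each, 2 from each of 2 experiments, and every group was transfected. The study asked how C/EBPβ shapes the transcriptome of β-adrenergically stimulated macrophages. It used 1 cell line and 1 siRNA product against Cebpb, and the sources used here do not give the isoproterenol dose or time.

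TREM receptors are immunoglobulin-like surface proteins of myeloid cells with short cytoplasmic tails. They pair through charged residues in the membrane with Tyrobp (DAP12), an adaptor with an immunoreceptor tyrosine-based activation motif (ITAM). Src family kinases phosphorylate the motif, which then recruits the tyrosine kinase Syk, while Hcst (DAP10) carries a motif that recruits phosphatidylinositol 3-kinase. TREM1 is known for amplifying inflammatory responses of neutrophils and monocytes, and TREM2 for binding lipids and lipoproteins and for dampening inflammatory output in macrophages and microglia.

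Levels are reads per 10⁶ sequenced reads (RPM), and a value of 1 RPM or less is listed as 0. Reads came from the 3′ end of transcripts and were not divided by length. Levels are compared between libraries and not between genes. Libraries held 9.42 to 25.2 M reads, with 5.81 to 15.9 M assigned to genes. The share of unmapped reads was higher in every Cebpb siRNA library than in every control siRNA library of the same stimulation (6.32 to 7.61% against 5.14 to 5.94% unstimulated, 5.90 to 7.36% against 5.07 to 5.81% with isoproterenol). It moves with every Cebpb siRNA comparison that follows, and its part in them was not tested. Log2 fold changes with their standard errors (SE) and adjusted p-values come from limma over 11060 tested genes with experiment as a term, and a gene is called when its adjusted p is under 0.05. The p-values measure the spread between these libraries, which the design text calls biological replicates.

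The targeted gene, Cebpb, had 74.5, 61.3, 81.4 and 87.3 RPM with control siRNA and 11.8, 25.0, 21.8 and 33.1 RPM with Cebpb siRNA. With isoproterenol it had 100.6, 78.0, 99.1 and 90.6 RPM with control siRNA and 28.5, 27.6, 25.8 and 23.9 RPM with Cebpb siRNA. No Cebpb siRNA library reached the lowest control library, and the fitted level was 30.1% of control without isoproterenol and 30.2% with it (log2 fold change −1.73 ± 0.19 in each, adjusted p = 4.02e-07 and 3.81e-07). All 10 macrophage markers were above 1 RPM, with a summed level of 1964 to 3126 RPM over the libraries. No library had a B cell or fibroblast marker above 1 RPM. The dendritic cell markers summed to 3.61 to 10.6 RPM over the libraries, from 2 of 5 genes, Batf3 and Zbtb46. The T and NK cell markers summed to 2.40 to 6.20 RPM, from 1 of 9 genes, Lck. Of 9 neutrophil markers, 7 were listed at 0 in every library, among them Ly6g, Mpo, Elane and S100a9.

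Trem1 was the member with the largest changes in each of the 4 pairwise comparisons: isoproterenol raised it 2.06-fold with control siRNA and 2.11-fold with Cebpb siRNA, and Cebpb siRNA raised it 4.32-fold in unstimulated and 4.44-fold in stimulated cells. Trem2, which lies in the same gene cluster, fell with Cebpb siRNA and did not pass the test for isoproterenol. Of the adaptors, Tyrobp rose and Hcst fell with Cebpb siRNA. Syk fell with Cebpb siRNA in unstimulated cells, by less than its fellow members, and did not pass the test in stimulated cells. Trem3 stayed at or near the 1 RPM limit.

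The TREM genes lie on the plus strand of chromosome 17 (GRCm38, GENCODE annotation). Trem1 (ENSMUSG00000042265.13) spans 48232768 to 48246924, and Trem3 (ENSMUSG00000041754.5) starts 852 bases after it, at 48247777, and ends at 48258841. Trem2 (ENSMUSG00000023992.14) spans 48346401 to 48354147. A gene entry on the minus strand overlaps Trem1, and the sources used here do not say whether the authors' counting used strand. RefSeq promoter windows (GRCm38.p6, 250 bases before to 50 after the start site) were found for 4 of the 6 genes. Those of Trem1 and Trem2 are shown because these genes of the same cluster moved in opposite directions with Cebpb siRNA. Capitals mark matches, on either strand, to TTGCNNAA (C/EBP), TTGCGCAA (C/EBP palindrome), TGACGTCA (full cAMP response element, CRE), TGACG (CRE core), TGANTCA (AP-1) or GAGGAA (PU.1 core).

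Trem1, chr17:48232489-48232788, plus strand: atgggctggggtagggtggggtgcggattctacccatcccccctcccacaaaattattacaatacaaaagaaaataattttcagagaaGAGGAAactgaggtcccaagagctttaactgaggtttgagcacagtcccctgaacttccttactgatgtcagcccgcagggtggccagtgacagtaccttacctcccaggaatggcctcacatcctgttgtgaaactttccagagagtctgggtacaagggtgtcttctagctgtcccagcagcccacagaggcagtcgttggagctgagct

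Trem2, chr17:48346151-48346450, plus strand: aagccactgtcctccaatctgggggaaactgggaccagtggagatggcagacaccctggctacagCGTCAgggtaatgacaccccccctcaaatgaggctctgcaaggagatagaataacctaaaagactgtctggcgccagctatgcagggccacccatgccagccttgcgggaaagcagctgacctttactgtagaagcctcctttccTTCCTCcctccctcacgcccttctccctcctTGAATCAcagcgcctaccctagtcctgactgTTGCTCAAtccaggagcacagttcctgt

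In the Trem1 window the only match was GAGGAA at −162 from the start site, a word found in 28.3% of 32851 windows of the same length. The Trem2 window held the C/EBP letters at +23, a CRE core at −185, the AP-1 letters at −9, next to the start site, and the PU.1 core, read on the minus strand, at −40. The C/EBP letters occur in 10.8% of all windows, the CRE core in 20.8% and the AP-1 letters in 7.81%. Neither window held TTGCGCAA (0.183% of windows) or TGACGTCA (1.79%). The Hcst window held none of the 6 words, and of the 2 Syk windows 1 held GAGGAA, at −9. These matches are letters in a window, and no binding was measured.

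Trem1, the receptor known for amplifying inflammation, had 3.04, 3.16, 5.11 and 3.62 RPM with control siRNA, and 6.73, 8.53, 6.89 and 8.76 RPM when isoproterenol was added (experiment 1, then experiment 2). With Cebpb siRNA it had 13.1, 16.1, 15.1 and 15.4 RPM, and with both treatments 29.4, 29.9, 38.01 and 33.4 RPM. The 4 groups stood in the order control, isoproterenol, Cebpb siRNA, both, and no 2 of them overlapped. Group means ± SD (n = 4) were 3.73 ± 0.951, 7.73 ± 1.064, 14.9 ± 1.28 and 32.7 ± 3.97 RPM, resting on 58 to 813 reads per library. On scaled values 5.63% of all tested genes had separate isoproterenol groups with control siRNA and 6.45% with Cebpb siRNA. The siRNA groups were separate for 46.2% without isoproterenol and 48.4% with it. In bulk RNA, a higher level per cell and a larger share of cells with the transcript cannot be told apart.

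Isoproterenol raised Trem1 2.06-fold in control siRNA cells (log2 1.04 ± 0.12, adjusted p = 1.54e-05) and 2.11-fold in Cebpb siRNA cells (1.08 ± 0.12, adjusted p = 5.33e-06). It was among the 14 genes called at least 2-fold higher with control siRNA and the 32 with Cebpb siRNA. Cebpb siRNA raised it 4.32-fold without isoproterenol (2.11 ± 0.12, adjusted p = 1.87e-12) and 4.44-fold with it (2.15 ± 0.12, adjusted p = 1.23e-12). The isoproterenol effects with the 2 siRNAs differed by 0.04 ± 0.17 on the log2 scale (95% confidence interval −0.32 to 0.40, adjusted p = 0.993). In experiments 1 and 2 the log2 difference with isoproterenol was 1.24 and 0.84 with control siRNA and 1.00 and 1.16 with Cebpb siRNA. The log2 difference with Cebpb siRNA was 2.28 and 1.94 without isoproterenol and 2.03 and 2.27 with it. Experiment 2 alone, with 2 libraries a group, gave an adjusted p of 0.232 for isoproterenol in control siRNA cells.

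Beside Trem1, the neutrophil marker S100a8 moved the other way with Cebpb siRNA. S100a8 had 2.85 ± 0.497 RPM with control siRNA and 5.03 ± 0.587 RPM with control siRNA and isoproterenol, and was listed at 0 in 7 of the 8 Cebpb siRNA libraries. The summed neutrophil markers were 2.28 to 4.87 RPM with control siRNA, 4.44 to 5.84 RPM with isoproterenol, and 0 to 1.05 RPM over all Cebpb siRNA libraries. Of the macrophage markers, more rose than fell in each of the 4 comparisons. Cebpb siRNA raised 8 of the 10 and lowered 1, Cd68, without isoproterenol (median log2 fold change 0.48), and raised 7 and lowered 2 with it (0.40). Of all tested genes, 30.9% were higher and 30.4% lower in the first comparison, and 31.6% and 30.3% in the second. Isoproterenol raised 3 of the 10, Lyz2, Itgam and Cd14, with control siRNA (median 0.21) and 1, Itgam, with Cebpb siRNA (0.07), where 1.21% and 3.0% of all genes were higher. The summed macrophage markers were 1964 to 2529 RPM with control siRNA, 2569 to 3126 RPM with isoproterenol, 2509 to 2777 RPM with Cebpb siRNA and 2609 to 3059 RPM with both. The part of these markers in the Trem1 values was not tested.

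**Figure D1:**
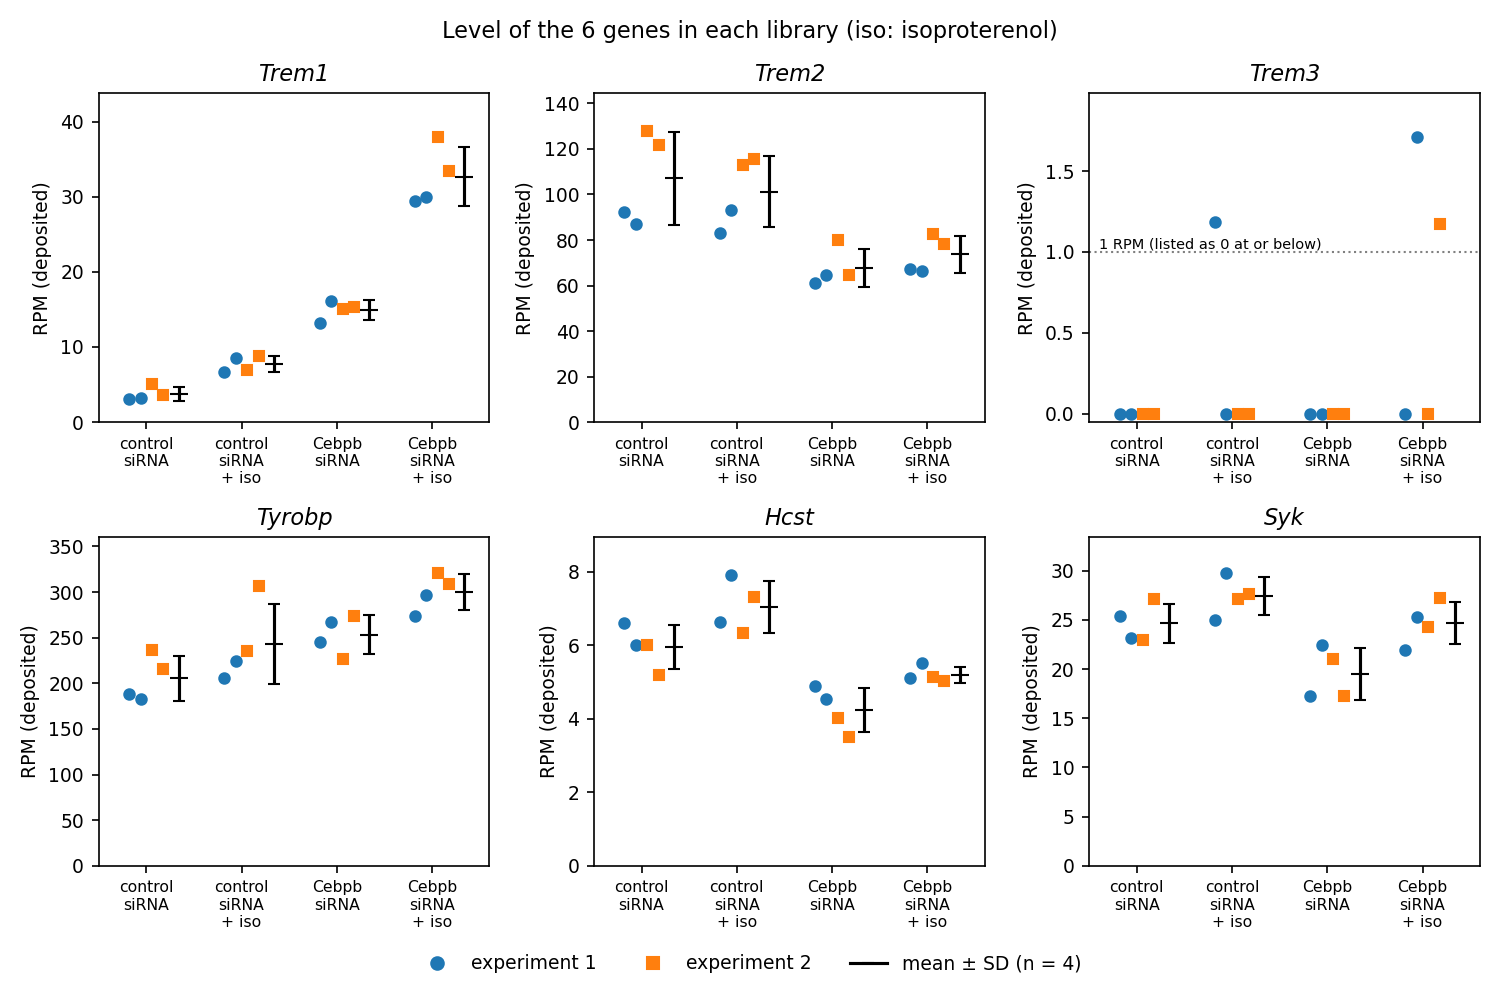
Level of each of the 6 genes in RPM as deposited (vertical axis, from 0) in the 16 libraries by group (horizontal axis; iso, isoproterenol). Circles are experiment 1, squares experiment 2, and bars the mean ± SD of 4 libraries; Trem1 forms 4 separate groups, while the dotted line in the Trem3 panel is the 1 RPM limit under which values are listed as 0.

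Trem2, the lipid-sensing receptor, had 92.4, 87.0, 128 and 122 RPM with control siRNA, and 61.1, 64.5, 80.1 and 64.8 RPM with Cebpb siRNA. Isoproterenol groups had 83.2, 93.3, 113 and 116 RPM with control siRNA and 67.1, 66.5, 82.5 and 78.4 RPM with Cebpb siRNA. In deposited values every Cebpb siRNA library was below every control siRNA library of the same stimulation, although after scaling the stimulated groups overlapped (exact two-sided permutation p = 0.0571). On scaled values 46.2% of all tested genes had separate siRNA groups without isoproterenol and 48.4% with it. The share was not counted for deposited values. For Trem2, experiment 2 was the higher of the 2 experiments in all 4 groups on scaled values, by 0.23 to 0.44 on the log2 scale. Trem2 fell by 0.57 ± 0.06 on the log2 scale without isoproterenol, or 1.48-fold (adjusted p = 9.38e-08). With isoproterenol it fell by 0.39 ± 0.06, or 1.31-fold (adjusted p = 1.79e-05). Within experiments 1 and 2 the log2 difference was −0.46 and −0.67 without isoproterenol and −0.34 and −0.44 with it.

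The isoproterenol groups of Trem2 overlapped with the unstimulated ones under either siRNA. The log2 fold change was −0.10 ± 0.06 with control siRNA (95% interval −0.24 to 0.03, adjusted p = 0.612) and 0.08 ± 0.06 with Cebpb siRNA (−0.06 to 0.21, adjusted p = 0.566). Their difference was 0.18 ± 0.09 (−0.01 to 0.37, adjusted p = 0.79). In order of level, Cebpb siRNA and both treatments stood low, and isoproterenol and control high, with neighbours inside each pair overlapping.

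Because both receptors were counted in the same libraries, log2 Trem1 minus log2 Trem2 does not depend on how libraries are scaled. The measure was chosen after the values were seen and is given without a test. Only its change between groups is read, since read numbers of 2 genes are not comparable as levels. It was −4.86 ± 0.18 (SD, n = 4) with control siRNA, −3.71 ± 0.25 with isoproterenol, −2.18 ± 0.18 with Cebpb siRNA and −1.17 ± 0.05 with both. No 2 groups overlapped. Isoproterenol shifted it by 1.15 in control siRNA cells and 1.00 in Cebpb siRNA cells, and Cebpb siRNA by 2.68 without and 2.54 with isoproterenol.

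**Figure D2:**
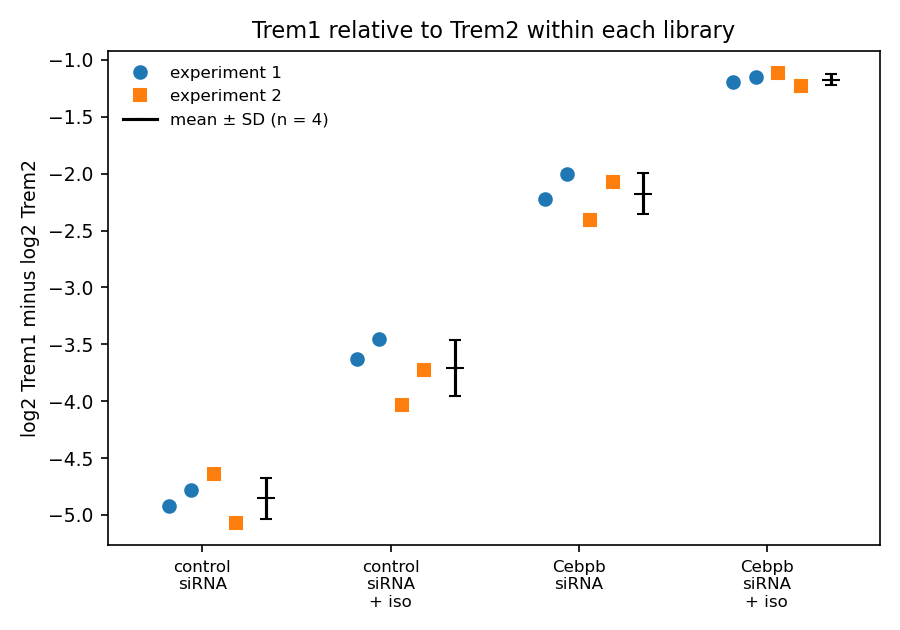
Log2 Trem1 minus log2 Trem2 in each library (vertical axis, log2 units) by group (horizontal axis), with circles for experiment 1, squares for experiment 2 and bars for the mean ± SD of 4 libraries. The 4 groups are separate and run from a mean of −4.86 with control siRNA to −1.17 with Cebpb siRNA and isoproterenol.

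Trem3, an activating receptor of mouse myeloid cells that also pairs with Tyrobp, was listed at 0 in 13 of 16 libraries. It was above the limit in 1 library of control siRNA with isoproterenol (1.19 RPM) and in 2 of Cebpb siRNA with isoproterenol (1.71 and 1.17 RPM), with at most 27 reads. All unstimulated libraries were at 0. As the limit stands for between 9 and 25 reads, no difference was detectable at this depth, and Trem3 did not pass the filter on low values.

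The cluster holds further receptor genes that were not members, Treml4, Treml2 and B430306N03Rik between Trem3 and Trem2, and Treml1 (48359916 to 48367176) beyond Trem2. B430306N03Rik (48316141 to 48327024) fell with Cebpb siRNA by 0.76 ± 0.10 on the log2 scale without isoproterenol (adjusted p = 8.35e-07) and by 0.90 ± 0.10 with it (adjusted p = 6.36e-08). Treml1, known from platelets, fell by 0.77 ± 0.21 (adjusted p = 0.00301), and Treml2 by 0.41 ± 0.17 (adjusted p = 0.0429), both without isoproterenol. Both lie near the 1 RPM limit, with 12 to 63 reads per library for Treml1 and 22 to 117 for Treml2. Unstimulated, Treml1 had 2.08 to 3.31 RPM with control siRNA and 1.11 to 2.26 RPM with Cebpb siRNA. Treml2 had 3.15 to 4.32 and 2.00 to 3.93 RPM, so these deposited values overlapped for both genes. With isoproterenol Treml1 was at −0.44 (adjusted p = 0.0687) and Treml2 at −0.22 (adjusted p = 0.262). Treml4 was listed at 0 in all 16 libraries. Of the 5 tested genes of the cluster, Cebpb siRNA raised Trem1 and lowered the other 4 in unstimulated cells, where 30.9% of all tested genes were higher and 30.4% lower. With isoproterenol it raised Trem1 and lowered Trem2 and B430306N03Rik, where 31.6% were higher and 30.3% lower.

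Tyrobp (ENSMUSG00000030579.10, chromosome 7, 30413760 to 30417585, plus strand), the ITAM adaptor of the TREM receptors, had 188, 182, 236 and 215 RPM with control siRNA and 245, 267, 227 and 273 RPM with Cebpb siRNA. With isoproterenol it had 206, 225, 236 and 306 RPM with control siRNA and 274, 297, 320 and 308 RPM with Cebpb siRNA. The siRNA groups overlapped at their edges in these deposited values, and the libraries with both treatments were the highest as a group. After scaling, the unstimulated groups did not overlap, which held for 46.2% of all tested genes. Cebpb siRNA raised Tyrobp 1.31-fold without isoproterenol (log2 0.39 ± 0.08, adjusted p = 2.24e-04) and 1.30-fold with it (0.38 ± 0.08, adjusted p = 2.59e-04). In experiment 1 the log2 differences were 0.52 and 0.47, and in experiment 2 they were 0.26 and 0.30, where neither passed on its own (adjusted p = 0.141 and 0.0969). Isoproterenol gave 0.20 ± 0.08 with control siRNA (95% interval 0.04 to 0.37, adjusted p = 0.286). With Cebpb siRNA it gave 0.20 ± 0.08 (0.03 to 0.36, adjusted p = 0.171). These intervals are not adjusted for the number of genes and exclude 0, but neither comparison passed after adjustment. The difference of the isoproterenol effects was −0.01 ± 0.11 (95% interval −0.24 to 0.23, adjusted p = 0.996).

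Hcst (ENSMUSG00000064109.8), the adaptor that couples to phosphatidylinositol 3-kinase, lies beside Tyrobp on the minus strand (30417712 to 30419854). The 3′ ends of the 2 genes face each other with 126 bases between them, and their annotated spans do not overlap. Reads within either span are told apart by position, and only reads that run past an end need strand. Hcst had 6.61, 6.02, 6.00 and 5.18 RPM with control siRNA and 4.89, 4.54, 4.01 and 3.50 RPM with Cebpb siRNA. With isoproterenol it had 6.63, 7.91, 6.34 and 7.31 RPM with control siRNA and 5.11, 5.52, 5.14 and 5.04 RPM with Cebpb siRNA. In deposited values every Cebpb siRNA library was below every control library of the same stimulation, although after scaling the unstimulated groups overlapped. On scaled values 46.2% of all tested genes had separate siRNA groups without isoproterenol and 48.4% with it. The share was not counted for deposited values.

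Hcst fell by 0.41 ± 0.12 on the log2 scale with Cebpb siRNA alone (1.33-fold, adjusted p = 0.00409) and by 0.37 ± 0.12 with isoproterenol (1.29-fold, adjusted p = 0.00901). These values rest on 33 to 191 reads per library. The log2 difference was −0.37 and −0.45 in experiments 1 and 2 without isoproterenol and −0.38 and −0.35 with it, and none of these passed within 1 experiment (adjusted p = 0.0782, 0.0607, 0.0656 and 0.135). Isoproterenol gave 0.21 ± 0.12 with control siRNA (95% interval −0.03 to 0.45, adjusted p = 0.535). With Cebpb siRNA it gave 0.26 ± 0.12 (0.02 to 0.50, adjusted p = 0.221), which did not pass although the unadjusted interval excludes 0. The 2 effects differed by 0.04 ± 0.16 (95% interval −0.30 to 0.39, adjusted p = 0.991). Hcst was lower in experiment 2 than in experiment 1 in all 4 groups, where Trem2 was higher.

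Syk (ENSMUSG00000021457.14, chromosome 13, 52583173 to 52648792, plus strand), the kinase that binds phosphorylated ITAMs, had 25.4, 23.2, 22.9 and 27.1 RPM with control siRNA and 17.2, 22.5, 21.0 and 17.3 RPM with Cebpb siRNA. With isoproterenol it had 25.0, 29.7, 27.1 and 27.7 RPM with control siRNA and 22.0, 25.3, 24.3 and 27.2 RPM with Cebpb siRNA. With and without Cebpb siRNA, the unstimulated groups were separate and the stimulated ones overlapped, and Cebpb siRNA alone had the lowest mean of the 4 groups. On scaled values 46.2% of all tested genes had separate unstimulated groups. Syk fell by 0.26 ± 0.09 on the log2 scale in unstimulated cells (adjusted p = 0.012), a call lost without Cebpb siRNA replicate 1 of experiment 1 (−0.22, adjusted p = 0.0514) and within each experiment (−0.25 and −0.27, adjusted p = 0.0777 and 0.11). With isoproterenol the log2 fold change was −0.08 ± 0.09 (95% interval −0.26 to 0.09, adjusted p = 0.404).

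Isoproterenol raised Syk in Cebpb siRNA cells by 0.30 ± 0.09 (adjusted p = 0.0431), and the value was 0.12 ± 0.09 in control siRNA cells (adjusted p = 0.671). The difference between these was 0.18 ± 0.12 (95% interval −0.08 to 0.43, adjusted p = 0.904), so a response that depends on the siRNA is not shown. The call with Cebpb siRNA was lost when any 1 of 11 of the 16 libraries was left out (adjusted p up to 0.145). It was kept without replicate 1 of experiment 2 of control siRNA, replicate 2 of experiment 1 of control siRNA with isoproterenol, replicate 2 of experiment 1 or 1 of experiment 2 of Cebpb siRNA, or replicate 1 of experiment 1 of both. It was also lost in each experiment alone (0.23 and 0.37, adjusted p = 0.393 and 0.181).

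**Figure D3:**
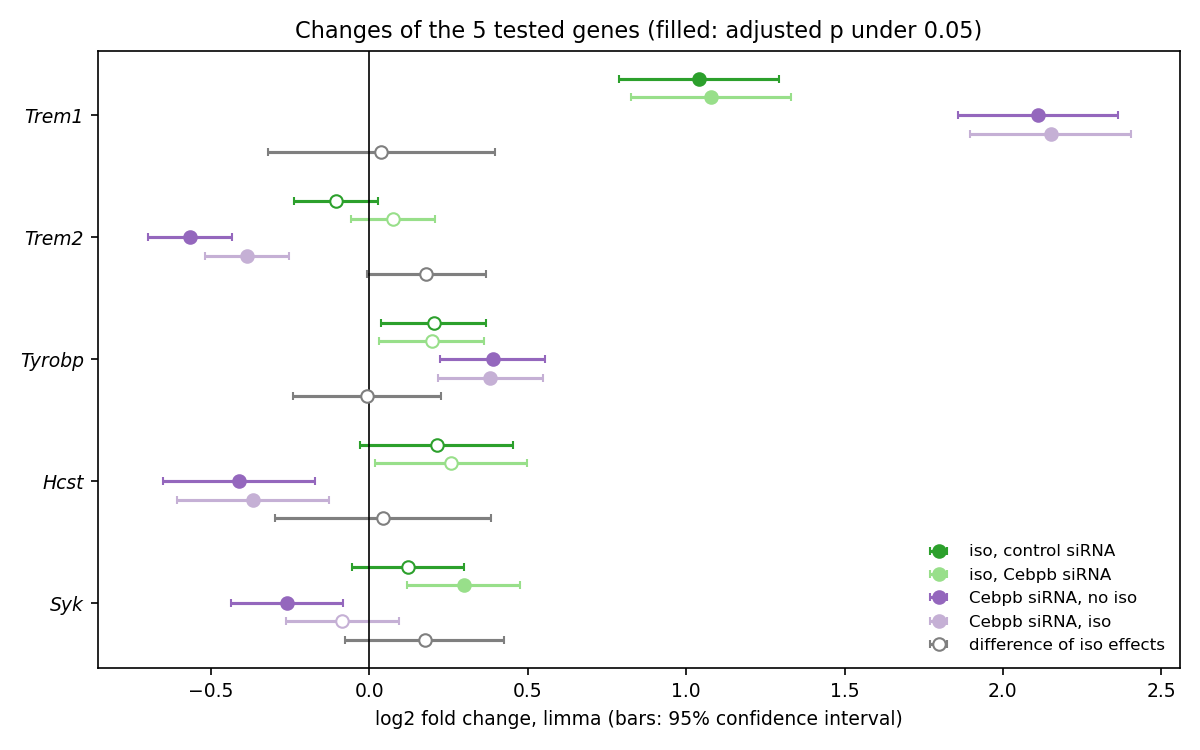
Log2 fold changes from limma (horizontal axis) of the 5 tested genes (vertical axis) in the 4 pairwise comparisons and the difference of the isoproterenol effects, with 95% confidence intervals; filled points have an adjusted p under 0.05. Trem1 lies near 1 for isoproterenol and near 2 for Cebpb siRNA, the other genes lie within 0.6 of 0, and every interval of the difference includes 0.

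Counted together, isoproterenol in control siRNA cells raised 1 of the 5 tested members, Trem1, and lowered 0, where 1.65% of all tested genes were called, 1.21% higher (134 genes) and 0.443% lower (49). On the values as deposited, without scaling, that split of all genes was 145 and 27. In Cebpb siRNA cells it raised 2, Trem1 and Syk, where 5.48% of all genes were called, 3.0% higher (332 genes) and 2.48% lower (274), or 455 and 153 genes as deposited. Cebpb siRNA without isoproterenol raised Trem1 and Tyrobp and lowered Trem2, Hcst and Syk, so all 5 were called, where 61.3% of all genes were, 30.9% higher (3414 genes) and 30.4% lower (3367), or 2726 and 3917 genes as deposited. With isoproterenol it raised the same 2 and lowered Trem2 and Hcst, against 62.0% of all genes, 31.6% higher (3500 genes) and 30.3% lower (3354), or 2976 and 3761 as deposited. Being called in the siRNA comparisons thus did not set these genes apart from the rest, and the median log2 fold change of the 5 was −0.26 and −0.08, against 0.01 and 0.02 for all tested genes. The difference of the isoproterenol effects was called for 0 of the 5 (limma, 0 also at an unadjusted p under 0.05) and for 0.235% of all genes, 0.118% in each direction. The comparisons share libraries, so they are not independent of each other.

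On scaled values, the isoproterenol groups of 4 did not overlap for Trem1 with control siRNA, where 5.63% of all genes had groups that did not overlap. With Cebpb siRNA this held for Trem1 and Syk, against 6.45%. Cebpb siRNA groups did not overlap for Trem1, Trem2, Tyrobp and Syk without isoproterenol, against 46.2%, and for Trem1 and Hcst with it, against 48.4%. In an exact two-sided permutation test of 4 against 4 libraries the smallest p is 0.0286, which all 4 comparisons of Trem1 reached. After Benjamini-Hochberg adjustment over the 24 tests of the members and Cebpb it became 0.0623 (exact test), so none passed once adjusted.

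The receptors that share the adaptors were read from a list of 17 other activating receptors of myeloid and lymphoid cells, of which 8 were tested; 2 of them, Clec4d and Clec4e, are better known as partners of the adaptor Fcer1g, and the adaptor of Cd300ld is uncertain here. With Cebpb siRNA 7 rose and 0 fell without isoproterenol, and 6 rose and 0 fell with it, where 30.9% and 31.6% of all tested genes were higher. The list's median log2 fold change was 1.025 and 0.95, against 0.01 and 0.02 for all tested genes. Clec5a (MDL-1), a Tyrobp-coupled lectin, rose from 40.9 ± 3.04 to 115 ± 11.1 RPM (log2 1.58 ± 0.08 without isoproterenol, 1.20 ± 0.08 with it). Cd300ld rose by 1.65 ± 0.09 and 1.97 ± 0.09, and Cd300lb by 0.71 ± 0.07 and 1.00 ± 0.07. Pilrb1 and Pilrb2 rose by 1.51 and 1.34 without isoproterenol, at under 6 RPM, and their close similarity makes the assignment of reads uncertain. Isoproterenol in control siRNA cells raised 4 of the 8, Cd300ld, Clec4d, Clec4e and Clec5a, by 0.31 to 0.55, where 1.21% of all genes were higher. In Cebpb siRNA cells it raised Cd300ld by 0.74 and Cd300lb by 0.39. For Clec4e, Mincle, a sensor of glycolipids, the isoproterenol effect was smaller with Cebpb siRNA, by 0.37 ± 0.08 on the log2 scale (adjusted p = 0.0449).

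Among 5 tested other ITAM proteins, Fcer1g, the common γ chain of Fc receptors, rose with Cebpb siRNA by 0.59 ± 0.06 without isoproterenol and 0.56 ± 0.06 with it. Fcgr1, the high-affinity IgG receptor that signals through Fcer1g, fell by 1.38 ± 0.12 and 1.55 ± 0.12. Clec7a (Dectin-1), a β-glucan receptor with its own ITAM-like motif, fell by 0.55 ± 0.12 and 0.81 ± 0.12 with Cebpb siRNA. Clec7a also fell with isoproterenol, by 0.72 ± 0.12 with control siRNA and 0.98 ± 0.12 with Cebpb siRNA. The receptor Fcgr4 rose with isoproterenol by 0.41 ± 0.10 and 0.56 ± 0.10. In both siRNA comparisons the adaptors split: Tyrobp and Fcer1g were higher with Cebpb siRNA, and Hcst was lower.

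Of 8 tested kinases that act beside Syk, Cebpb siRNA raised 5 and lowered 2 without isoproterenol, and 0 of the 8 were called for isoproterenol with either siRNA (limma; 2 with control siRNA and 1 with Cebpb siRNA at an unadjusted p under 0.05). Lyn, a Src family kinase that phosphorylates ITAMs, rose by 0.84 ± 0.07, and Tec fell by 0.73 ± 0.11. With isoproterenol present, 4 rose and 3 fell. Of 25 adaptors and effectors downstream of Syk, 11 rose and 6 fell in each siRNA comparison. The kinases called were thus 7 of 8 and the effectors 17 of 25 in each, where 61.3% and 62.0% of all tested genes were called. Lat2, a membrane adaptor of ITAM signalling in myeloid cells, fell by 1.13 ± 0.08 and 1.17 ± 0.08, and the adaptor Grb2 rose by 0.67 ± 0.05 and 0.72 ± 0.05. The median log2 fold change of the effectors was 0.14 and 0.05 and that of the kinases 0.28 and 0.18, against 0.01 and 0.02 for all tested genes. Isoproterenol lowered 1 of the 25 with each siRNA, Pik3cd by 0.25 ± 0.06 with control siRNA and Pik3cb by 0.26 ± 0.07 with Cebpb siRNA. Of all tested genes, it lowered 0.443% with control siRNA and 2.48% with Cebpb siRNA, and called 1.65% and 5.48% in either direction. So few isoproterenol calls among the kinases and effectors do not set them apart from the rest.

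Of 12 tested inhibitors of ITAM signalling, 5 rose and 4 fell with Cebpb siRNA without isoproterenol, and 6 rose and 4 fell with it, where 30.9% and 31.6% of all tested genes were higher and 30.4% and 30.3% lower. Dok3, an adaptor that restrains ITAM signals, rose by 1.37 ± 0.11 and 1.19 ± 0.11. Inpp5d, the inositol phosphatase SHIP1, rose by 0.64 ± 0.06 and 0.97 ± 0.06, and by 0.48 ± 0.06 with isoproterenol in Cebpb siRNA cells. Of 13 receptors with inhibitory motifs, 6 rose and 4 fell without isoproterenol and 5 rose and 5 fell with it, against the same shares of all genes. The list's median log2 fold change was 0.15 and −0.17, against 0.01 and 0.02 for all tested genes. Clec4a2, Clec12a and Pilra rose by 1.97 ± 0.11, 1.81 ± 0.11 and 1.47 ± 0.07 with Cebpb siRNA without isoproterenol. Clec12a fell with isoproterenol, by 0.80 ± 0.11 with control siRNA and 0.57 ± 0.11 with Cebpb siRNA.

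**Figure D4:**
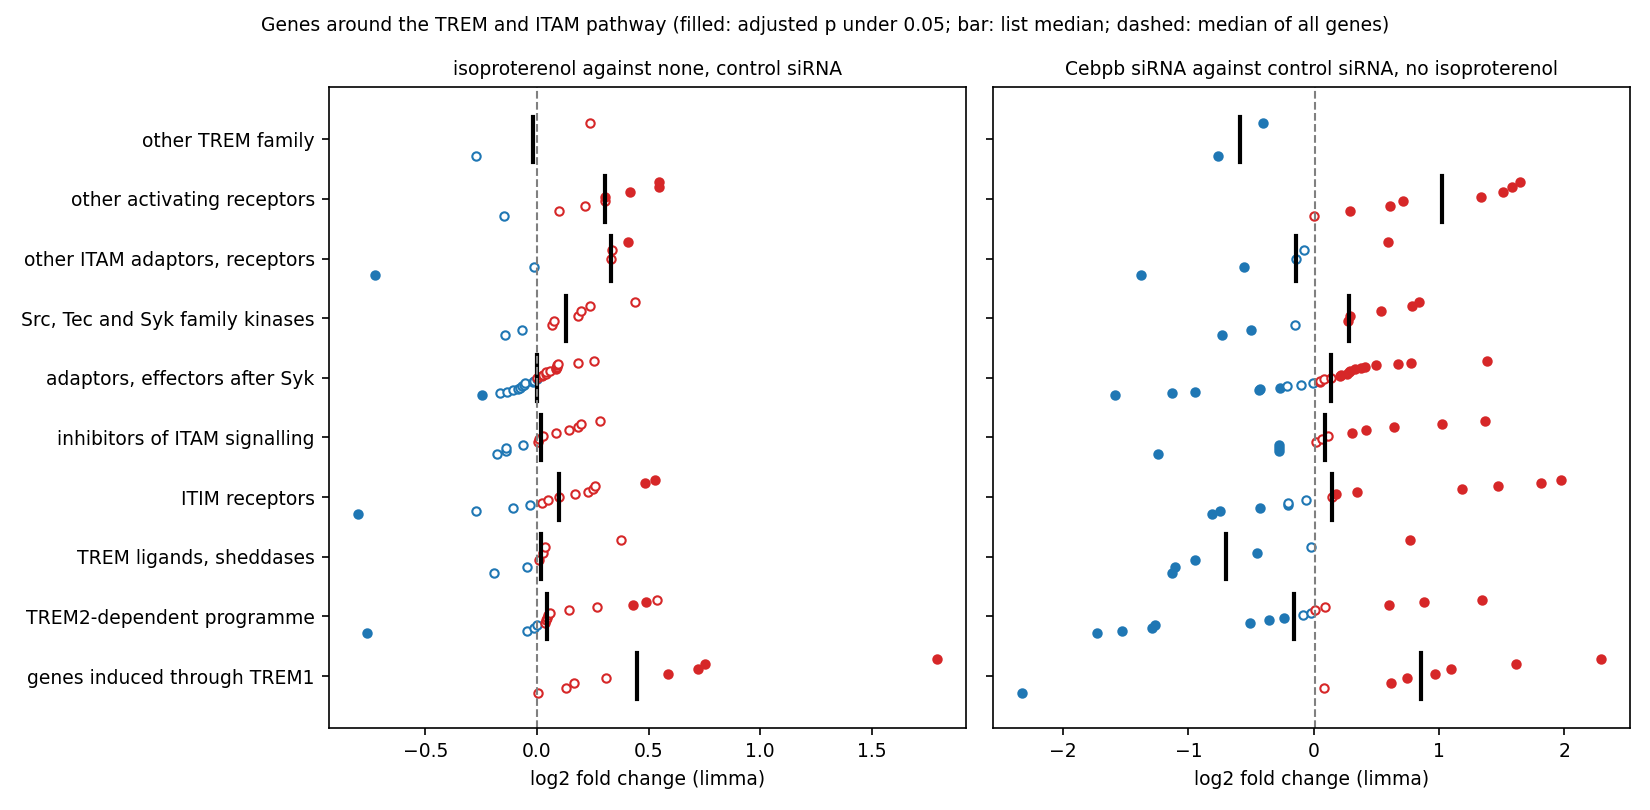
Log2 fold changes from limma (horizontal axis) of the tested genes of 10 lists around the TREM pathway (vertical axis) for isoproterenol in control siRNA cells (left) and Cebpb siRNA without isoproterenol (right). Each point is a gene, filled where the adjusted p is under 0.05, red above and blue below 0; black bars are list medians and the dashed line is the median of all tested genes, and on the right the list of other activating receptors has a median near 1.

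Of the ligands and sheddases of TREM receptors, 6 of 13 were tested. Adam10 and Adam17, the proteases that cleave TREM2 from the cell surface, fell with Cebpb siRNA by 1.10 ± 0.06 and 0.95 ± 0.06 without isoproterenol and by 1.20 ± 0.06 and 1.22 ± 0.06 with it. Hmgb1, a reported TREM1 ligand, fell by 1.13 ± 0.11 and 1.01 ± 0.11. In all, 1 of the 6 rose, Mmp9, and 4 fell without isoproterenol, and 0 rose and 3 fell with it, where 30.4% and 30.3% of all tested genes were lower.

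From 18 genes of the lipid and phagocytic programme that depends on Trem2 in microglia, 14 were tested, and Cebpb siRNA raised 3 and lowered 7 without isoproterenol, and raised 3 and lowered 8 with it. Of all tested genes, 61.3% and 62.0% were called, 30.4% and 30.3% lower. Lpl, lipoprotein lipase, fell by 1.27 ± 0.07 and 1.69 ± 0.07, Gpnmb by 1.53 ± 0.08 and 1.67 ± 0.08 and Fabp5, a fatty acid-binding protein, by 1.29 ± 0.08 and 1.60 ± 0.08. Isoproterenol with control siRNA raised 2 of the 14, Spp1 by 0.49 ± 0.10 and Ctsl by 0.43 ± 0.09. It lowered 1, Lpl, by 0.76 ± 0.07, where 1.21% of all tested genes were higher and 0.443% lower. In Cebpb siRNA cells it raised 0 and lowered 1, Lpl, by 1.18 ± 0.07, where 3.0% were higher and 2.48% lower. Cst7, the protease inhibitor cystatin F, rose by 1.34 and 0.96 with Cebpb siRNA. It was named after the values were seen and lies near the 1 RPM limit. Without isoproterenol it had 1.74 ± 0.474 RPM with control siRNA and 4.17 ± 1.15 RPM with Cebpb siRNA. The medians of the list were −0.16 and −0.29, against 0.01 and 0.02 for all tested genes.

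Of 10 genes known to be induced through TREM1, 8 were tested, and isoproterenol in control siRNA cells raised 4 and lowered 0, with a median of 0.45, where 1.65% of all tested genes were called and the median was 0.00. Among them Cd86, a co-stimulatory ligand, rose by 0.72 ± 0.09, the neutrophil attractant Cxcl2 by 0.75 ± 0.13 and Il1rn, the interleukin-1 receptor antagonist, by 0.59 ± 0.08. In Cebpb siRNA cells isoproterenol raised 2 and lowered 3, Tnf, Ccl3 and Cd40, where 5.48% of all genes were called. Cebpb siRNA raised 6 and lowered 1 without isoproterenol, Il1rn by 2.29 ± 0.08 and Cd40 by 1.61 ± 0.11, while the chemokine Ccl3 fell by 2.33 ± 0.08. With isoproterenol 3 rose and 2 fell. In these 2 comparisons 61.3% and 62.0% of all genes were called. For Il1rn the isoproterenol effect was smaller with Cebpb siRNA, by 0.65 ± 0.11 on the log2 scale (adjusted p = 0.00404).

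The genes whose levels followed each member most closely were taken by Pearson correlation over the 16 libraries after each experiment's mean was subtracted, from the 6691 candidates whose mean reached 10 RPM. The points share library and siRNA, so these values are descriptions. For Trem1 they were Milr1 (r = 0.98), a mast cell immunoglobulin-like receptor, Cd300ld (0.98) and Edil3 (0.98). Their log2 fold changes with Cebpb siRNA alone were 0.79, 1.65 and 2.45, against 2.11 for Trem1. For Trem2 they were Tubb4b (0.98), Gtf2i (0.98) and Ubn1 (0.97), for Tyrobp Mrpl14 (0.96), Mrps21 (0.95) and Srek1ip1 (0.94), and for Hcst Mphosph8 (0.95), Nars (0.95) and Dbi (0.94). Syk was followed less closely, by Sap30l (0.88), Psmc1 (0.87) and Epb41 (0.87).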

How the data were processed

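Total RNA was sequenced with a kit that reads the 3′ ends of transcripts (QuantSeq 3′ FWD), per the labels' protocols. The submitters' processing notes name STAR 2.5.3a and GRCm38. The sources used here do not give the counting tool or its use of strand. The authors deposited log2 RPM of all sequenced reads, and entries of at most 1 RPM are listed as 0. The unit follows from the entries, 100% of which gave whole reads within 0.1 read. Because they are not counts, limma 3.58.1 in R 4.3.3 was used, with trend and robust estimation, over all 16 libraries with the 4 groups and experiment as terms. Scaling used a trimmed mean of log ratios between libraries, with 30% of ratios and 5% of levels trimmed, which left factors of 0.932 to 1.058. Values were floored at 1.07 scaled RPM, and a gene had to exceed that in at least 4 libraries, which left 11060 to test, 1380 of them at the floor in at least 1 library, so that differences of low genes are understated. Benjamini-Hochberg adjustment of p-values ran over all tested genes. The fit was tested on simulated data. Errors of RPM are SDs of unscaled values over 4 libraries, and counting error alone limits values near 1 RPM.

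The members and the lists of related genes were chosen with earlier results of these data known. Named beside the members are, for each list and comparison, up to 3 tested genes that average at least 5 RPM and have the smallest adjusted p; other list genes were named after their values were seen. Replicate numbers do not pair libraries: deviations of same-numbered libraries from their group means correlated between −0.19 and 0.23 over 12 pairs. Coordinates come from GENCODE and promoter sequences from RefSeq. Some genes that the naming rule selected are not reported here.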

Additional observations from a re-analysis of the deposited data

How the results depend on the processing

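Of 670 values of the members under other settings, 626 kept their direction and side of the threshold, 27 lost the call and 17 changed sign, all of the latter in the difference of the isoproterenol effects, which was called for no member. Every call of Trem1 and Trem2 held in all settings run except Trem1 with isoproterenol and control siRNA in experiment 2 alone (0.84). With experiment 1 or 2 alone, calls were also lost for Hcst (−0.37 and −0.45 for Cebpb siRNA in unstimulated, −0.38 and −0.35 in stimulated cells) and Syk (−0.25 and −0.27 for Cebpb siRNA, 0.23 and 0.37 for isoproterenol in Cebpb siRNA cells), and in experiment 2 for Tyrobp (0.26 and 0.30). The last Syk call was lost too with median-of-ratios scaling (0.29, adjusted p = 0.0517) and, at 0.30, without the experiment term, with only the 8 libraries compared and without trend and robust estimation (adjusted p = 0.113, 0.157 and 0.0706). Leaving out 1 library gave 0.25 to 0.36 for it, and −0.32 to −0.21 for Syk with Cebpb siRNA alone.

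Changes of sign of the difference were −0.25 for Trem1 and −0.016 for Hcst in experiment 1, and 0.034 for Tyrobp in experiment 2 and 0.012 as deposited. Without 1 library the difference was −0.10 to 0.12 for Trem1, −0.097 to 0.083 for Tyrobp and −0.0072 to 0.10 for Hcst.

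Genes called over the whole table depended more on the setting. Isoproterenol with control siRNA called 183 genes, 44 without the experiment term, 417 with 8 libraries, 111 and 21 in experiments 1 and 2, 116 without trend and robust estimation and 100 to 263 without 1 library. It was under 120 without control siRNA replicate 1 of experiment 1 (100) or replicate 2 of experiment 2 (113), and without 3 libraries of control siRNA with isoproterenol: replicate 2 of experiment 1 (117) and, of experiment 2, replicate 1 (115) or 2 (111). With Cebpb siRNA it called 606, and 197, 249, 243 and 145 without the experiment term, with 8 libraries and in experiments 1 and 2. The difference was called for 26 genes, 10 without the experiment term, 12 above the floor in all 16 libraries, 17 on log2(RPM + 1) and 12 and 2 in experiments 1 and 2. The cause of these differences was not tested.

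With the replicate number as a block the counts were 152, 549, 6702, 6768 and 27, no call of a member changed, and Trem1 was at 1.04 and 2.11 for isoproterenol and Cebpb siRNA in the reference groups. Depth limits Trem3, at or under 27 reads, and Hcst, at 33 to 191.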

Other observations

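Tyrobp and Hcst, whose 3′ ends face each other, moved apart with Cebpb siRNA. Log2 Tyrobp minus log2 Hcst, which does not depend on scaling, was 5.11 ± 0.27 (SD, n = 4) with control siRNA and 5.10 ± 0.25 with isoproterenol. It was 5.91 ± 0.27 with Cebpb siRNA and 5.85 ± 0.12 with both. Every Cebpb siRNA library was above every control siRNA library, and the measure was chosen after the values were seen. The sources used here do not say whether counting used strand, and its part in these values was not tested.

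The 7-base word AACTTGT, singled out in earlier work on these data, occurs in the longest 3′ UTR of 14.9% of 10123 tested genes, whose median log2 fold change with Cebpb siRNA alone was −0.24, against 0.04 for the others. As the word came from these same data, the difference is not independent support for an effect of the word. Genes with the word had longer 3′ UTRs, with a median of 2439.5 bases against 1033 for the others, and the part of length in the difference was not tested. Neither the word nor its core ACTTGT, which 38.1% of the genes hold, occurs in the 3′ UTRs of the 6 members. These are 94 to 370 bases long for Trem2, Trem3, Tyrobp and Hcst, 2276 for Trem1 and 2997 for Syk. In the shorter ones, absence of the word says little.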
